A study of Homo sapiens with 15 samples.

Results

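Aminoacyl-tRNA synthetases are the enzymes that charge each transfer RNA with its amino acid, and a list of 35 of their genes was followed here across an adipocyte culture model. Members were chosen by symbol, 19 for the cytosol and 16, with symbols ending in 2, for the mitochondrion. Of these, 31 of the 17687 genes with a symbol on the array were measured, each by 1 probe set, and they comprised 16 cytosolic and 15 mitochondrial enzymes. MARS1, QARS1, VARS1 and TARS2 were not analysed here.

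The cells were ASC52 (ASC52htert), a human adipose-derived mesenchymal stem cell line immortalised with telomerase, and 15 single-colour arrays were available in 3 groups of 5. The MSC group was the undifferentiated line, seeded in MesenPRO RS growth medium, and the labels do not give its harvest time. The MA group was put into StemPRO adipogenic medium 3 days after seeding, kept there for 14 days and then held for 7 days in control RPMI with 10% fetal bovine serum. The DED group, which the series describes as dedifferentiated, had the same differentiation and then 7 days in RPMI with 10% serum that MDA-MB-231 cells, a human breast carcinoma line, had conditioned. MA and MSC therefore differ in adipogenic induction, in time and in final medium, and these cannot be told apart. DED and MA differ in the conditioning of the medium. All groups are of 1 immortalised line, and nothing in the labels says that the 5 arrays of a group came from separate cultures, so every p-value here rests on a spread between arrays that may be technical.

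In the cytosol, charged tRNA feeds the ribosome, and uncharged tRNA activates the kinase GCN2, which raises translation of the transcription factor ATF4. ATF4, usually with a C/EBP partner, binds composite C/EBP-ATF elements in genes for amino acid synthesis, amino acid uptake and many cytosolic synthetases. The mitochondrion has its own translation system, served by nuclear-encoded enzymes that are mostly separate gene products. GARS1 and KARS1 are exceptions, since each encodes both the cytosolic and the mitochondrial form of its enzyme.

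Most cytosolic enzymes were lower in MA than in MSC and higher in DED than in MA, and most mitochondrial ones passed in neither comparison. GARS1 and KARS1, which encode both forms, were counted as cytosolic only. Of the 16 cytosolic members, 14 fell and 0 rose in MA against MSC (limma, Benjamini-Hochberg adjusted p under 0.05 over all genes), where 17.6% of all genes were called lower and 15.4% higher. In DED against MA, 11 of the 16 rose and 0 fell, where 12.9% of all genes were called higher and 13.0% lower. The 15 mitochondrial members gave 1 rise and 2 falls in the first comparison, and 2 rises and 1 fall in the second. The cytosolic median log2 difference was -1.08 in MA against MSC and 1.06 in DED against MA, and the mitochondrial medians were -0.13 and -0.03. Over all genes the medians were -0.0020 and 0.018. Both comparisons use the 5 MA arrays, so their values are given side by side and their agreement is not read as a result. In bulk RNA, fewer cells of a type and less RNA per cell cannot be told apart.

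Promoter stretches of the members that the results turn on are shown first, from RefSeq windows on GRCh38.p14 that run from 250 bases before a gene's start site to 50 bases from it on. Windows were held for 27 of the 31 measured members, 36 windows in all, and YARS1, LARS1, VARS2 and AARS2 had none. The core letters of the composite C/EBP-ATF element, TGATGNAA, were searched on both strands. They were found in 7 members, all shown here with the match in capitals and written 5′ to 3′ in the direction of the gene, where TTGCATCA and TTTCATCA are the element read from the other strand. The stretches are TARS1 at chr5:33440927-33441014 on the plus strand, GARS1 at chr7:30594805-30594892 on the plus strand, IARS1 at chr9:92293663-92293750 on the minus strand, CARS1 at chr11:3057378-3057465 on the minus strand, AARS1 at chr16:70289646-70289733 on the minus strand, NARS1 at chr18:57621787-57621862 on the minus strand and YARS2 at chr12:32756047-32756134 on the minus strand.
TARS1: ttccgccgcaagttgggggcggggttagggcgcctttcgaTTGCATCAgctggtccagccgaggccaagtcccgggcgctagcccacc
GARS1: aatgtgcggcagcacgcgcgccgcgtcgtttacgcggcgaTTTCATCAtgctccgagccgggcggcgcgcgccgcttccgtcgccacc
IARS1: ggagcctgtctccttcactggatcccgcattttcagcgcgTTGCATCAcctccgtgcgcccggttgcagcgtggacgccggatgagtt
CARS1: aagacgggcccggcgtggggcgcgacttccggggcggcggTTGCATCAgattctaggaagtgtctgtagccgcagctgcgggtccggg
AARS1: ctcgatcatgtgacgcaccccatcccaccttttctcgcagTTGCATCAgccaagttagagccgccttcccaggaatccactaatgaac
NARS1: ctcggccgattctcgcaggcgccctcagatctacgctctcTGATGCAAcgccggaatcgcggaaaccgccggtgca
YARS2: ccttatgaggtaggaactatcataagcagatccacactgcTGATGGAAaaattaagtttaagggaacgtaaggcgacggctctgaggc

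Counting the start site as position 0, the first capital lay at 2 in TARS1, at -33 in GARS1, at -13 in IARS1, at -2 in CARS1, at -187 in AARS1, at 14 in NARS1 and at -197 in YARS2. TARS1, GARS1 and CARS1 each had another window, from another start site, that did not hold the letters and is not shown. Matches were thus in 6 of the 14 cytosolic members with a window and in 1 of the 13 mitochondrial ones. Of the 9 cytosolic members with a window that rose in DED against MA, 6 held a match, and of the other 5 cytosolic members with a window, 0 did. These groups were drawn after the values were seen. The letters occurred in 3.62% of all 35116 windows and in 2.68% of those of measured genes, and a gene with several windows has more chances to hold them. A match is a description of letters and not a bound site.

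A pair of stretches without the letters is shown for comparison. WARS1, at chr14:100376278-100376427 on the minus strand, had the largest changes of all members and no match in any of its windows. Its other window, at chr14:100375298-100375597 from another start site, is not shown. RARS1, at chr5:168486371-168486520 on the plus strand, passed the test in neither of the comparisons with MA and had no match. Both stretches run from position -100 to position 49.
WARS1: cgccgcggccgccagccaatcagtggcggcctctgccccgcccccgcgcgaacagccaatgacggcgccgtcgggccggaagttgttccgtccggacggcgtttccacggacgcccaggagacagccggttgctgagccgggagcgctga
RARS1: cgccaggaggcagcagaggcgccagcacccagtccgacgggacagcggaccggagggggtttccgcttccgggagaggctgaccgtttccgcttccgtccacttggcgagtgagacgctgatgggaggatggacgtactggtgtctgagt

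HARS1 and HARS2, the cytosolic and mitochondrial histidine enzymes, are read in opposite directions from start sites 85 bases apart, so that 184 bases of their windows are the same DNA. That shared stretch, at chr5:140691321-140691504, is shown on the minus strand, in the direction of HARS1, with nothing marked.
HARS1: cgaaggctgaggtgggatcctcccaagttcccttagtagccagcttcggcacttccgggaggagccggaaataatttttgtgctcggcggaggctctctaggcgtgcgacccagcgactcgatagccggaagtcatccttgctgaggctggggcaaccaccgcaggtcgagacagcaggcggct

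The other motifs were searched in the same way. The ETS core CCGGAAG was in 9 of 14 cytosolic and 6 of 13 mitochondrial members (10.26% of all windows), 6 of the 9 that rose in DED against MA and 3 of the other 5. The E-box CACGTG, a palindrome, was in 1 cytosolic member (IARS1) and 3 mitochondrial members (7.26% of all windows). The core of the NRF1 site, GCATGCGC, was in 0 cytosolic and 2 mitochondrial members, MARS2 and YARS2 (3.05%). The YY1 letters AAGATGGC were in 3 members of each class (2.89%). No motif contains the letters of another.

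Values below are the authors' log2 intensities, so a difference of 1 is a doubling, and levels of different probe sets are not set against each other. As a gauge of background, 612 negative control probe sets centred on 4.80 (median), and 95% of their values were below 8.31. Arrays of 1 group correlated at 0.982 or more over genes. The adipocyte label was checked on 9 markers, and all 9 rose in MA against MSC, with ADIPOQ (adiponectin) from 3.50 to 4.49 in MSC and from 15.03 to 15.23 in MA. In DED against MA 8 of the 9 fell, and ADIPOQ read 13.89 on DED array 1 and from 11.24 to 12.37 on the other DED arrays. PLIN1, which coats lipid droplets, ran from 3.83 to 5.58 in MSC and from 11.89 to 12.33 in MA, and read 10.90 on DED array 1 and from 8.76 to 9.37 on the other DED arrays.

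The largest change was that of WARS1, the tryptophan enzyme, also known as an interferon-induced gene. WARS1 read 15.27, 15.20, 15.14, 15.19 and 15.26 on MSC arrays 1 to 5, then 12.80, 12.45, 12.57, 12.82 and 12.57 on the MA arrays, and 15.16, 15.43, 16.24, 15.65 and 15.55 on the DED arrays. Every MA array was below every array of both other groups, and DED array 3 stood highest. The log2 difference was -2.57 (SE 0.15, a 5.94-fold fall, adjusted p = 3.2e-11) in MA against MSC and 2.96 (SE 0.15, a 7.80-fold rise, adjusted p = 1.8e-11) in DED against MA.

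YARS1, the tyrosine enzyme, had the next largest rise. It read 12.61, 12.62, 12.62, 12.80 and 12.68 in MSC, 10.94, 11.03, 10.97, 10.89 and 11.00 in MA, and 12.66, 12.94, 13.47, 13.14 and 13.10 in DED. The MA arrays lay close together and apart from the other groups. The differences were -1.70 (SE 0.12, adjusted p = 7.3e-10) and 2.10 (SE 0.12, adjusted p = 1.0e-10), a 3.25-fold fall and a 4.28-fold rise.

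SARS1 (serine) read 13.59, 13.75, 13.18, 13.49 and 13.33 in MSC, 12.02, 12.17, 12.12, 11.95 and 12.07 in MA, and 13.17, 13.59, 13.65, 13.29 and 13.22 in DED. Its differences were -1.40 and 1.32 (SE 0.13 each), with every MA array below the others. GARS1 (glycine, both compartments) read 15.97, 16.01, 15.98, 16.00 and 16.02 in MSC, 14.77, 14.57, 14.84, 14.67 and 14.70 in MA, and 15.69, 15.82, 16.36, 15.97 and 15.93 in DED. The MSC arrays of GARS1 were almost level (SD 0.02), while DED array 3 stood above the rest of its group. Its differences were -1.29 and 1.24 (SE 0.11 each), close to those of AARS1 (alanine) at -1.25 and 1.26 (SE 0.09 each). AARS1 read 15.30, 15.29, 15.31, 15.19 and 15.27 in MSC, 14.15, 13.89, 14.01, 14.09 and 13.95 in MA, and 15.18, 15.28, 15.43, 15.29 and 15.19 in DED, so that its MSC and DED arrays overlapped and its MA arrays lay below both.

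NARS1 (asparagine) ran from 10.14 to 10.45 in MSC, from 8.89 to 9.31 in MA and from 10.08 to 10.47 in DED, with differences of -1.23 and 1.09 (SE 0.11 each). TARS1 (threonine) ran from 10.86 to 11.22, from 9.89 to 10.19 and from 10.87 to 10.94 in the same order of groups, with differences of -0.92 and 0.84 (SE 0.10 each). The 5 DED arrays of TARS1 had the smallest spread of any cytosolic member in DED (SD 0.03). CARS1 (cysteine) was the dimmest cytosolic member, with means of 8.51, 7.83 and 8.63, so that its MA mean lay below the negative control percentile of 8.31. It still fell by 0.68 (SE 0.10, adjusted p = 1.6e-05) and rose by 0.81 (SE 0.10, adjusted p = 3.4e-06), and its MA arrays did not overlap the other groups.

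In animal cells EPRS1, IARS1, LARS1, KARS1 and RARS1, among the members measured here, belong to a large multi-synthetase complex held together by AIMP scaffold proteins. The other 11 cytosolic members act outside it. Of the 5 in the complex, 4 fell in MA against MSC and 3 rose in DED against MA, beside 10 and 8 of the 11 outside it. Of all genes, 17.6% were called lower in the first comparison and 12.9% higher in the second. This split was written after the values were seen. IARS1 (isoleucine) read 12.77, 12.74, 12.86, 12.86 and 13.11 in MSC, 11.36, 10.88, 11.10, 11.34 and 11.00 in MA, and 12.53, 12.73, 12.91, 12.57 and 12.59 in DED. Its MA arrays were the lowest throughout, and its differences of -1.73 and 1.53 (SE 0.12 each) were the largest in the complex. EPRS1, a single protein that charges both glutamate and proline tRNA, read 14.20, 14.12, 14.19, 14.27 and 14.28 in MSC, 12.78, 12.92, 12.76, 12.90 and 13.05 in MA, and 13.74, 13.84, 14.02, 13.96 and 13.96 in DED. EPRS1 thus had 3 groups without overlap, in the order MSC, DED, MA, with differences of -1.33 and 1.02 (SE 0.10 each). LARS1, the leucine enzyme and a leucine sensor for the growth kinase complex mTORC1, ran from 11.17 to 11.36, from 10.21 to 10.54 and from 11.37 to 11.80. Its differences were -0.88 and 1.17 (SE 0.11 each).

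Across the 11 members that rose in DED against MA (AARS1, CARS1, EPRS1, GARS1, IARS1, LARS1, NARS1, SARS1, TARS1, WARS1 and YARS1), the rise ran from 1.75-fold to 7.80-fold, with adjusted p from 1.8e-11 to 3.4e-06. Their changes in MA against MSC, side by side, ran from a 1.60-fold to a 5.94-fold fall. In each of the 11, which are grouped here for that rise, every MA array lay below every MSC array and every DED array, given as a description. By enzyme class, 5 of the 6 class I cytosolic members (those with a Rossmann-fold catalytic domain) and 5 of the 9 class II members rose in DED against MA. Of all genes, 12.9% were called higher there. The split by class was written after the values were seen, and a difference between the classes was not tested. EPRS1 holds a domain of each class and was not counted in this split.

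**Figure D1:**
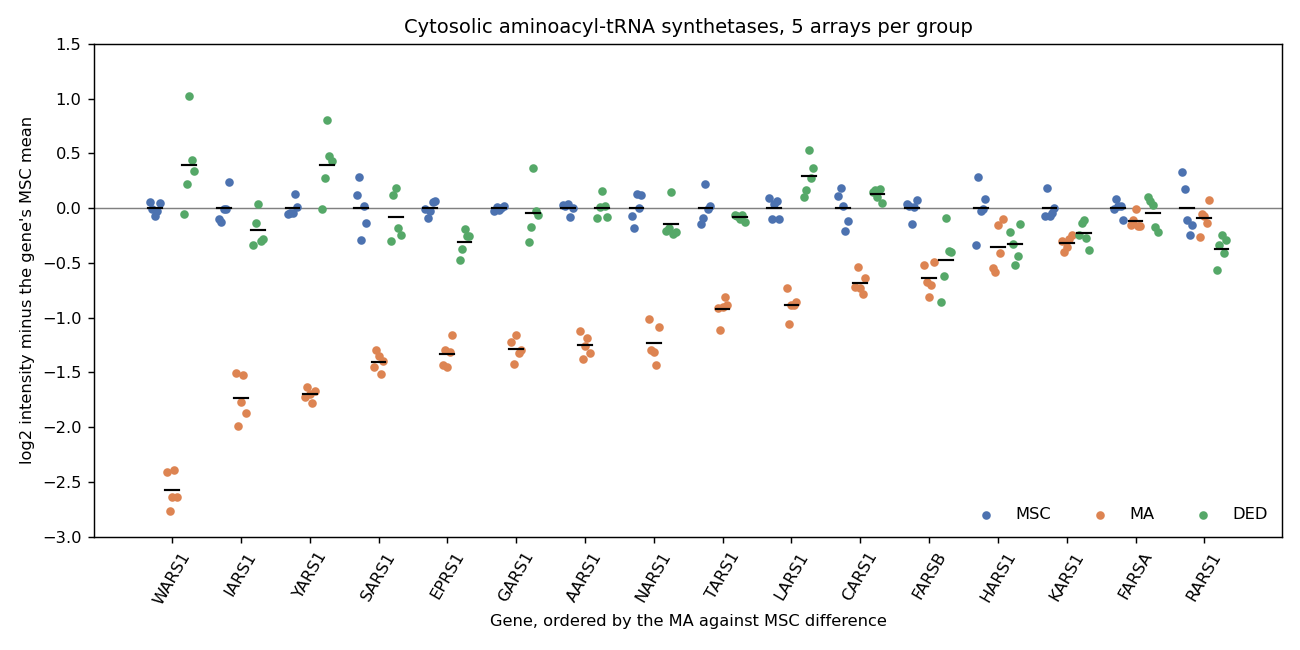
Each point is 1 array of a cytosolic synthetase gene as its log2 intensity minus that gene's MSC mean, coloured by group (MSC, MA, DED, 5 arrays each), with a black bar at the group mean. From WARS1 (MA mean difference -2.57) to CARS1 (-0.68) the MA points lie below both other groups, while from FARSB to RARS1 the MA and DED points overlap.

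The other 5 cytosolic members, FARSA, FARSB, HARS1, KARS1 and RARS1, did not pass in DED against MA, with differences from -0.28 to 0.17 and adjusted p from 0.097 to 0.91. FARSA and FARSB encode the alpha and beta subunits of phenylalanyl-tRNA synthetase. FARSA ran from 11.15 to 11.35 in MSC, from 11.10 to 11.25 in MA and from 11.04 to 11.36 in DED and passed in none of the 3 comparisons, with a 95% interval for DED against MA of -0.12 to 0.28. FARSB read 12.96, 12.94, 12.77, 12.93 and 12.99 in MSC, 12.40, 12.24, 12.11, 12.22 and 12.43 in MA, and 12.06, 12.30, 12.83, 12.53 and 12.52 in DED. FARSB fell by 0.64 (SE 0.13, adjusted p = 4.2e-04) in MA against MSC, and its DED arrays spread from below the MA range to above it (DED against MA 0.17, interval -0.10 to 0.43).

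RARS1 (arginine) ran from 12.29 to 12.86 in MSC, from 12.27 to 12.61 in MA and from 11.97 to 12.29 in DED, with differences of -0.09 (interval -0.34 to 0.16) and -0.28 (interval -0.53 to -0.03, adjusted p = 0.097). KARS1 (lysine, both compartments) ran from 13.39 to 13.65, from 13.06 to 13.22 and from 13.08 to 13.36. It fell by 0.32 (SE 0.10, adjusted p = 0.014) in MA against MSC and differed by 0.09 (interval -0.11 to 0.29) in DED against MA. HARS1 ran from 10.91 to 11.53, from 10.66 to 11.15 and from 10.73 to 11.10, with overlapping groups. It fell by 0.36 in MA against MSC (SE 0.13, adjusted p = 0.041), and that call was lost without MSC array 2, 3, 4 or 5 or MA array 1, 2 or 4 (adjusted p from 0.060 to 0.12). HARS1 also lost it under quantile normalization, with the 2 groups fitted alone and with a replicate block (adjusted p = 0.065, 0.054 and 0.051). In the complex, then, KARS1 and RARS1 had intervals in DED against MA that lay below those of EPRS1 (0.82 to 1.23), IARS1 (1.28 to 1.78) and LARS1 (0.95 to 1.39).

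The mitochondrial members had smaller differences, from -0.48 to 0.51 in MA against MSC and from -0.66 to 0.56 in DED against MA. IARS2, the mitochondrial isoleucine enzyme, was the member with the firmest calls, and its direction was opposite to that of IARS1. IARS2 read 11.12, 11.30, 11.37, 11.28 and 11.12 in MSC, 11.75, 11.84, 11.67, 11.70 and 11.76 in MA, and 10.98, 10.94, 11.01, 11.18 and 11.33 in DED. Every MA array was above every array of the other groups, whose ranges overlapped. The log2 difference was 0.51 (SE 0.10, 1.42-fold, adjusted p = 5.5e-04) in MA against MSC and -0.66 (SE 0.10, 1.58-fold, adjusted p = 5.5e-05) in DED against MA.

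VARS2 (valine) read 6.48, 6.57, 6.59, 6.34 and 6.40 in MSC, 5.81, 5.99, 6.27, 5.62 and 6.28 in MA, and 6.17, 6.31, 6.62, 6.47 and 6.16 in DED. It fell by 0.48 (SE 0.13, adjusted p = 0.0081) in MA against MSC, with groups apart, and its DED against MA difference of 0.35 (SE 0.13) had an adjusted p of 0.061. Leaving out MA array 3, MA array 5 or DED array 1 took that to 0.033, 0.030 and 0.044, and leaving out dim genes took it to 0.047. SARS2 (serine) ran from 7.80 to 8.32, from 7.30 to 8.26 and from 8.19 to 8.54, and rose by 0.56 (SE 0.15, adjusted p = 0.0079) in DED against MA, or adjusted p = 0.058 with DED arrays 1 and 3 left out together. In MA against MSC SARS2 differed by -0.31 (adjusted p = 0.13, and 0.030 without MA array 4). PARS2 (proline) ran from 7.72 to 8.28, from 7.20 to 7.87 and from 7.54 to 8.22, overlapping throughout. Its fall of 0.40 in MA against MSC (SE 0.15, adjusted p = 0.043) was lost without MSC array 2, 3 or 4 or MA array 2, 3, 4 or 5 (adjusted p from 0.051 to 0.13). PARS2 also lost that call under quantile normalization and with array weights (adjusted p = 0.069 and 0.072). Its rise of 0.44 in DED against MA (SE 0.15, adjusted p = 0.032) was lost without MA array 2, 4 or 5 or DED array 1, 2, 3 or 5 (adjusted p from 0.051 to 0.091). With array weights that rise was lost too (adjusted p = 0.086).

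The other 11 mitochondrial members passed in neither of these comparisons. RARS2 (arginine, 10.30 to 10.69 over all arrays) and YARS2 (tyrosine, 10.41 to 10.77) were bright and steady, with DED against MA intervals of -0.25 to 0.15 and -0.25 to 0.18. CARS2 (cysteine) ran from 9.76 to 10.21 in MSC, from 9.55 to 10.09 in MA and from 9.21 to 9.83 in DED, and its DED against MA difference was -0.31 (interval -0.60 to -0.01, adjusted p = 0.13). LARS2 (leucine) and WARS2 (tryptophan) differed by -0.34 and 0.28 in MA against MSC, and each passed there without MA array 2 (adjusted p = 0.030 and 0.023). AARS2, EARS2, FARS2, HARS2, MARS2 and NARS2 differed by -0.36 to 0.15 in MA against MSC and by -0.26 to 0.09 in DED against MA.

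Signal over background differed between the classes and stands beside this contrast. Of the 16 cytosolic members 15 had means above 8.31, the negative control percentile, in all 3 groups, while 10 of the 15 mitochondrial members were below it in every group and SARS2 in some. Median SDs within a group were 0.10, 0.11 and 0.15 for cytosolic and 0.18, 0.25 and 0.18 for mitochondrial members in MSC, MA and DED. A change of a dim probe set can be understated, and the part of signal in the contrast was not tested. The 4 mitochondrial members above the percentile in all groups, CARS2, IARS2, RARS2 and YARS2, differed by -0.31, -0.66, -0.05 and -0.04 in DED against MA, beside 0.81, 1.53, -0.28 and 2.10 for CARS1, IARS1, RARS1 and YARS1.

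**Figure D2:**
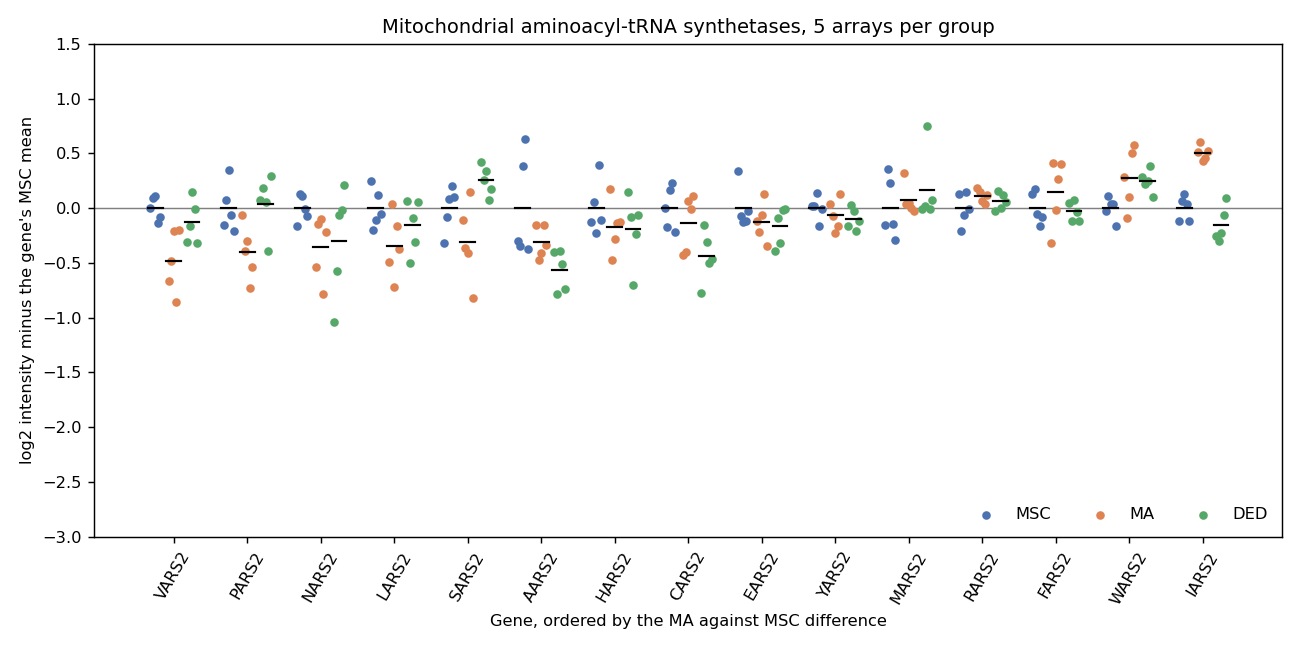
Each point is 1 array of a mitochondrial synthetase gene as its log2 intensity minus that gene's MSC mean, on the same vertical scale as for the cytosolic genes, with 5 arrays per group and a black bar at the group mean. Only IARS2 has MA points above both other groups, with a mean difference of 0.51 against MSC, and the points of most other genes overlap.

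**Figure D3:**
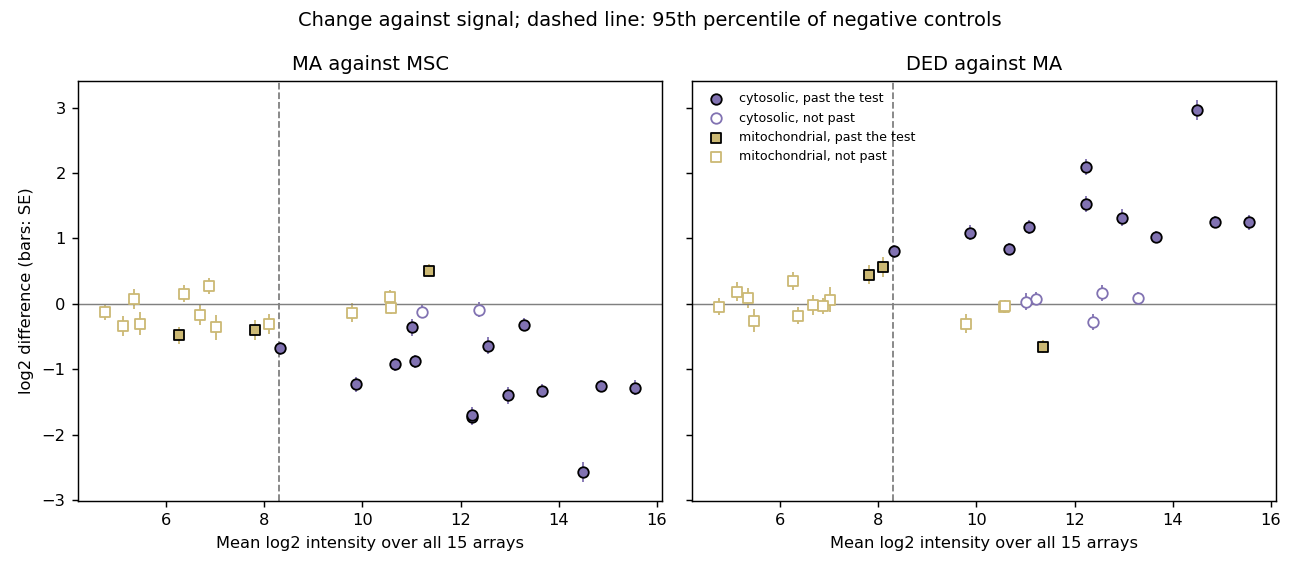
For each member the log2 difference (bars, SE) is plotted against its mean log2 intensity over all 15 arrays, for MA against MSC and DED against MA, with filled symbols past adjusted p 0.05. The dashed line at 8.31 is the 95th percentile of negative controls. Left of it lie the 10 mitochondrial members (squares) whose means were below it in every group, and SARS2. Levels are to be read against that line, not between genes.

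The contrast between compartments was tested as the cytosolic minus the mitochondrial log2 value on each array. This was done for 14 pairs that serve the same amino acid, adjusted together with all genes. GARS1 and KARS1, which encode both forms, entered no pair. Of the pairs called in DED against MA, only those with CARS2, IARS2 and YARS2 had a mitochondrial member above 8.31 in all groups. In the others a mitochondrial change can be understated near background, and its part in the difference was not tested. In MA against MSC the cytosolic change was the lower in 11 pairs, and in DED against MA it was the higher in 10 and the lower in 0. WARS1 and WARS2 differed most, by -2.85 (interval -3.19 to -2.50, adjusted p = 2.6e-11) and 2.99 (interval 2.65 to 3.34, adjusted p = 4.5e-11). IARS1 and IARS2 moved in opposite directions, and the difference of their changes was -2.24 (interval -2.55 to -1.93) and 2.19 (interval 1.87 to 2.50). For YARS1 and YARS2 it was -1.64 and 2.13, and for AARS1 and AARS2 it was -0.95 and 1.52. The pair CARS1 and CARS2 differed by -0.55 (interval -0.89 to -0.20) and 1.11 (interval 0.77 to 1.46).

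Pairs without a call in DED against MA were those of FARSA and FARSB with FARS2, HARS1 with HARS2 and RARS1 with RARS2. Their differences of change had intervals of -0.03 to 0.55, 0.01 to 0.68, -0.29 to 0.39 and -0.51 to 0.05, so a difference of up to 0.68 is not excluded by these arrays. FARSB with FARS2 passed without MA array 1 or DED array 1 (adjusted p = 0.014 and 0.030), and FARSA with FARS2 without MA array 1 (adjusted p = 0.045, and 0.030 in MA against MSC). EPRS1 with PARS2 passed at 0.017 and was lost without MA array 1 or DED array 4 (adjusted p = 0.056 and 0.058). EPRS1 entered both with EARS2 and with PARS2, since the mitochondrion uses separate enzymes for glutamate and proline.

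**Figure D4:**
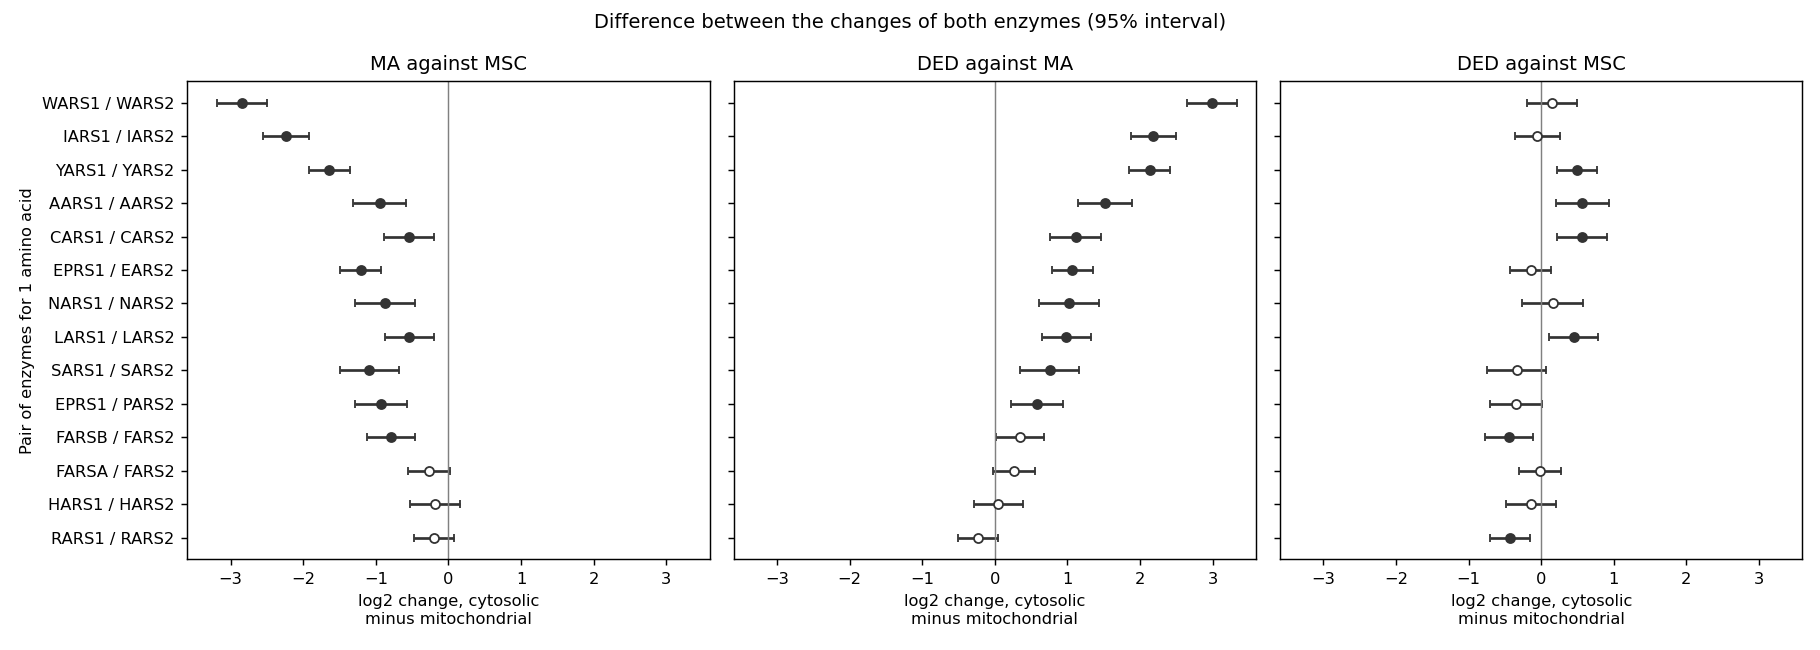
For each of 14 pairs of enzymes for the same amino acid, the point is the cytosolic minus the mitochondrial log2 change with its 95% interval, in 3 comparisons, filled where the adjusted p was under 0.05. In MA against MSC 11 filled points lie left of 0, in DED against MA 10 lie right of it, and in DED against MSC the filled points are 4 on the right and 2 on the left.

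Set against the undifferentiated line, DED gave cytosolic differences from -0.47 to 0.40. In DED against MSC 3 cytosolic members were higher, 3 lower and 10 not past the test, where 17.1% of all genes were called higher and 16.4% lower, and the cytosolic median was -0.08 beside 0.028 for all genes. Among the 11 that rose in DED against MA the difference from MSC ran from -0.31 to 0.40, and AARS1 stood at 0.00 (interval -0.19 to 0.20). YARS1 was higher by 0.40 (SE 0.12, adjusted p = 0.016) and LARS1 by 0.29 (SE 0.11, adjusted p = 0.040). The LARS1 call was lost without MSC array 2, 3 or 5 or DED array 3, 4 or 5 (adjusted p from 0.054 to 0.10). It was also lost with the 2 groups fitted alone and with a replicate block (adjusted p = 0.058 and 0.056). WARS1 was higher by 0.39 at an adjusted p of 0.0499, which rose above 0.05 on leaving out any 1 MSC array, any 1 MA array, or DED array 3, 4 or 5 (adjusted p from 0.053 to 0.14). With the 2 groups fitted alone and with a replicate block the adjusted p of WARS1 was 0.078 and 0.067. EPRS1 was lower by 0.31 (adjusted p = 0.018, and 0.11 after quantile normalization), FARSB by 0.47 (adjusted p = 0.0059) and RARS1 by 0.37 (adjusted p = 0.021). RARS1 lost its call without MSC array 1 or 2 or DED array 1 (adjusted p from 0.054 to 0.073). HARS1 (-0.33, adjusted p = 0.062) gained one without MSC array 1 or DED array 5 (0.021 and 0.049), and KARS1 differed by -0.23 (adjusted p = 0.077). With an intensity trend and robust fit HARS1 and KARS1 passed (adjusted p = 0.042 and 0.029).

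Among mitochondrial members AARS2 was lower in DED than in MSC by 0.57 (SE 0.17, adjusted p = 0.016) and CARS2 by 0.44 (SE 0.14, adjusted p = 0.021). Without MSC array 3 or 4 neither passed (AARS2 at 0.051 and 0.052, CARS2 at 0.055 and 0.062), and CARS2 did not without DED array 1 (0.064). AARS2 read 5.47, 5.43, 6.16, 6.41 and 5.40 in MSC, so MSC arrays 3 and 4 stand above the others of that group. In the pairs, the cytosolic difference from MSC was the higher for AARS1, CARS1, LARS1 and YARS1 and the lower for FARSB and RARS1. Of these, YARS1 with YARS2 (0.49, interval 0.21 to 0.77) and CARS1 with CARS2 (0.57, interval 0.22 to 0.91) passed on leaving out any 1 array. The others lost the call without at least 1 array: AARS1 without MSC array 3 (adjusted p = 0.052), RARS1 without MSC array 2 (0.055), LARS1 without MSC array 1, 2, 4 or 5 or DED array 2, 3 or 4 (0.050 to 0.10), and FARSB without MSC array 1, 4 or 5 or DED array 1, 2 or 4 (0.051 to 0.12). With a replicate block the LARS1 and FARSB pairs also lost it (adjusted p = 0.052 and 0.061), as did FARSB under quantile normalization (0.055).

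The DED arrays were less alike than those of the other groups. DED array 3 had the highest DED value in 12 of the 16 cytosolic members and DED array 1 the lowest in 10. Averaged over the 11 that rose in DED against MA, DED arrays 1 to 5 read 12.65, 12.80, 13.08, 12.83 and 12.79. The adipocyte marker mean stood at 11.42 on DED array 1 and from 9.91 to 10.27 on DED arrays 2 to 5, beside 5.30 to 5.50 in MSC and 12.38 to 12.55 in MA. The part of the adipocyte content in the cytosolic values was not tested. All 11 stayed past the test in DED against MA with DED arrays 1 and 3 left out together, where the cytosolic count was again 11.

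Carry-over of MDA-MB-231 cells was looked at through 6 carcinoma and epithelial markers. None passed in any comparison, and their mean ran from 6.04 to 6.33 in MSC, from 6.02 to 6.09 in MA and from 6.08 to 6.26 in DED. EPCAM ran from 4.05 to 4.60 and CDH1 from 3.94 to 4.90 in DED, under the negative control median of 4.80 except for DED array 4 of CDH1, but MDA-MB-231 cells are themselves mesenchymal and low in both. KRT8 ran from 8.88 to 9.03 in MSC, from 8.59 to 9.26 in MA and from 8.83 to 9.61 in DED. Every KRT8 array was above the negative control percentile of 8.31. KRT7, KRT18 and KRT19 ran from 7.11 to 7.68, from 4.38 to 5.07 and from 6.68 to 6.83 in DED. Of 4 leukocyte markers, CD68 rose in MA against MSC and fell in DED against MA. Of 7 mesenchymal stem cell markers 1 rose and 3 fell in MA against MSC, 2 rose and 2 fell in DED against MA, and 1 was higher and 5 lower in DED against MSC. Over all genes 15.4% and 17.6%, 12.9% and 13.0%, and 17.1% and 16.4% were called higher and lower in the same comparisons.

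Genes that work with the synthetases were read from 9 lists, of which 111 of 126 genes were measured. Their counts stand beside the shares of all genes, 15.4% called higher and 17.6% lower in MA against MSC, 12.9% and 13.0% in DED against MA, and 17.1% and 16.4% in DED against MSC. Several genes named from these lists had means below 8.31, the negative control percentile, in every group. Among them are ANKRD16, TARS3, GATB, TRNT1, GTPBP3, MTIF2, MTIF3, PPARGC1A, PPARGC1B, EEF1A2, CASTOR1, SESN1 and RPTOR. Changes of such dim probe sets can be understated, and the part of signal in them was not tested. Among partners and editing factors (8 genes) 2 rose and 1 fell in MA against MSC (median -0.03), and 3 rose and 2 fell in DED against MA (median 0.26), or 3 calls in all without MA array 5 or DED array 3. Against MSC, 3 were higher and 2 lower in DED (median -0.05). AIMP1, a scaffold of the multi-synthetase complex, read 9.92 in MSC, 9.89 in MA and 10.40 in DED as means, with no call in MA against MSC (-0.03) and a rise of 0.51 (SE 0.11, adjusted p = 0.0012) in DED against MA. AIMP2 and EEF1E1 were not analysed here. ANKRD16, a cofactor of the editing alanine enzyme, rose most in MA against MSC (0.85) and was 1.14 higher in DED than in MSC, with no call in DED against MA (0.29). DTD1, which removes D-amino acids from tRNA, fell by 1.28 in MA, did not pass in DED against MA (0.23) and was 1.05 lower in DED than in MSC. DALRD3 rose by 0.58 in MA and fell by 0.87 in DED against MA, where TARS3, a further threonine enzyme, fell by 0.64. DALRD3 also differed from MSC by -0.30 in DED (adjusted p = 0.020). DTD2 rose by 0.57 in DED against MA and was 0.53 higher than in MSC.

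The 9 lists were chosen with earlier results of these data known. Among them, that of GCN2, ATF4 and their targets had the medians farthest from 0 in both comparisons with MA, given as a description. Of its 23 measured genes 18 fell and 1 rose in MA against MSC (median -1.19), where 17.6% of all genes were called lower and 15.4% higher. In DED against MA 17 rose and 0 fell (median 1.67), where 12.9% of all genes were called higher and 13.0% lower. In DED against MSC 6 were higher and 4 lower (median 0.12), among them the stress genes ATF3 (1.94) and DDIT4 (1.04) at the top, and PHGDH of serine synthesis (-0.69) and IMPACT, an inhibitor of GCN2 (-0.59), at the bottom. ATF4 itself read 15.17 to 15.28 in MSC, 14.62 to 14.69 in MA and 15.31 to 15.40 in DED, with differences of -0.59 (adjusted p = 1.3e-05) and 0.73 (adjusted p = 1.5e-06). Asparagine synthetase, ASNS, is not a tRNA enzyme but makes the amino acid that NARS1 attaches. It read 12.97, 13.02, 13.22, 13.13 and 12.93 in MSC, 10.19, 10.12, 10.16, 10.35 and 10.13 in MA, and 12.74, 12.87, 13.89, 13.19 and 13.17 in DED, with differences of -2.86 and 2.98. The amino acid transporters SLC7A5 and SLC7A11 had the largest changes of the list, -3.86 and -3.66 and then 3.83 and 3.76. EIF2AK4, which encodes GCN2, was the 1 gene that rose in MA (0.35, adjusted p = 0.042), and its difference in DED against MA was -0.24 (adjusted p = 0.20). Only transcript levels were measured, so neither ATF4 protein nor kinase activity can be read here. The list's mean on DED array 3 was 12.00 and on DED array 1 it was 10.87, the same arrays that stood at the ends for the cytosolic enzymes. This order was not particular to these genes. DED array 3 had the highest DED mean of the mitochondrial enzymes (7.51) and of each of the 9 lists. DED array 1 had the lowest DED mean of the mitochondrial enzymes (7.39) and of several other lists.

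**Figure D5:**
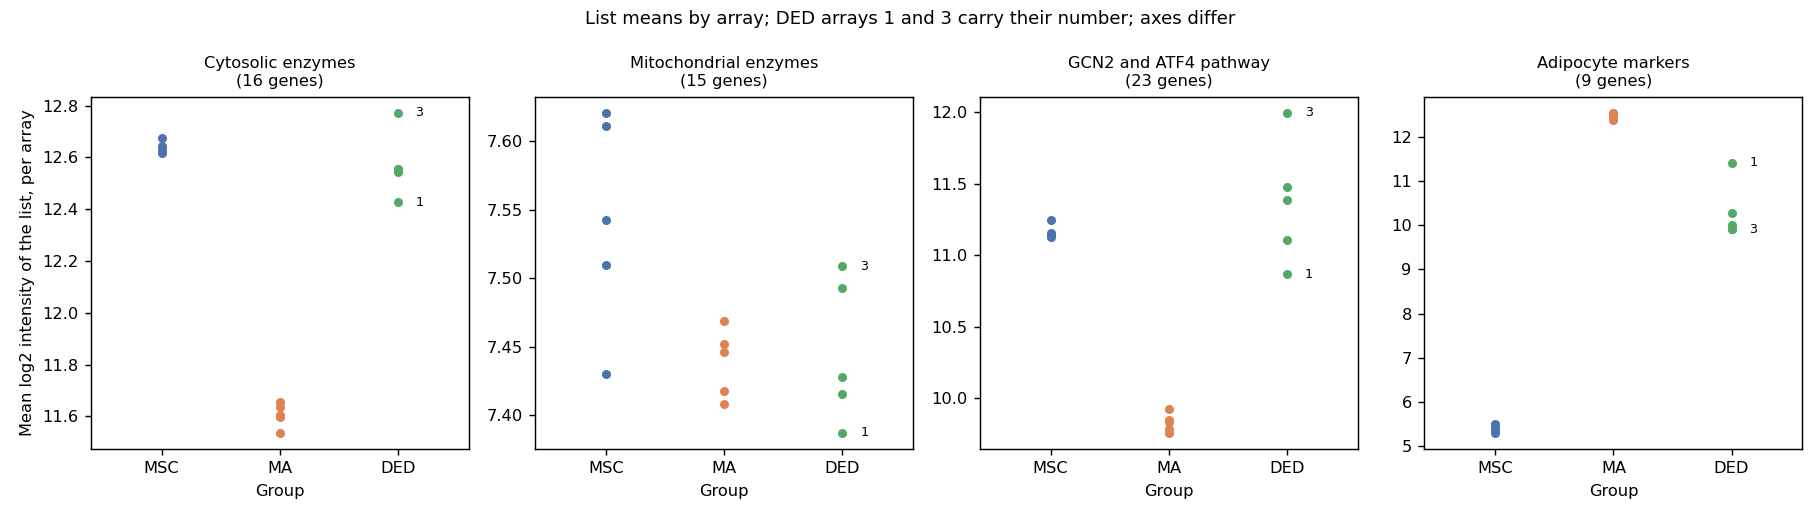
Mean log2 intensity per array over the 16 cytosolic enzymes, the 15 mitochondrial enzymes, the 23 genes of the GCN2 and ATF4 list and the 9 adipocyte markers, with 5 arrays per group and DED arrays 1 and 3 numbered. Vertical axes differ between panels. The cytosolic mean is 11.54 to 11.66 in MA and 12.43 to 12.77 in DED, and the mitochondrial panel spans only 7.39 to 7.62 over all arrays.

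Transfer RNA supply and modification were covered by further lists. Of 20 genes for tRNA transcription and export 2 rose and 5 fell in MA against MSC (median -0.27), beside 15.4% and 17.6% of all genes. In DED against MA 4 rose and 1 fell (median 0.09), beside 12.9% and 13.0%, and in DED against MSC 2 were higher and 4 lower, beside 17.1% and 16.4%. XPOT, the exportin that carries tRNA out of the nucleus, fell by 1.21 (adjusted p = 8.9e-08) and rose by 1.31 (adjusted p = 6.2e-08). POLR3G and POLR3GL are alternative subunits of RNA polymerase III. POLR3G fell by 0.76 in MA and stayed below MSC in DED (-0.84), while POLR3GL rose by 0.39 in MA and fell by 0.50 in DED against MA. POLR3E, of the same polymerase, rose by 0.79 in DED against MA. SSB, the La protein that binds new tRNA, rose by 0.37 in MA and stood 0.57 above MSC in DED. GTF3C3 and GTF3C2, of the factor TFIIIC, differed from MSC by 0.51 and -0.61 in DED.

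Of 12 cytosolic tRNA modification genes 1 rose and 6 fell in MA against MSC (median -0.40), beside 15.4% and 17.6% of all genes. In DED against MA 3 rose and 0 fell (median 0.27), beside 12.9% and 13.0%, and in DED against MSC 1 was higher and 3 lower. FTSJ1, a tRNA ribose methyltransferase, fell by 1.53 in MA and stayed below MSC in DED (-1.25). ALKBH8 fell by 0.97 and rose by 0.47, and TRMT6, part of a tRNA adenosine methyltransferase, rose by 0.53 in DED against MA. ELP3, of the Elongator complex, rose by 0.28 in MA and was 0.71 higher in DED than in MSC, where WDR4 differed by -0.51.

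A list of 10 genes for mitochondrial aminoacyl-tRNA completion also holds genes for tRNA modification and for the CCA end. In this list 1 gene rose and 2 fell in MA against MSC (median -0.14), and 2 rose and 1 fell in DED against MA (median 0.20). In DED against MSC 2 were higher and 1 lower (median -0.06). With 15.4% and 17.6%, 12.9% and 13.0%, and 17.1% and 16.4% of all genes called in the same directions, nothing about these lists is read from counts of this size, here and for the lists that follow. In that first list GATC rose by 0.55 in MA and was 0.72 higher in DED than in MSC, while GATB, of the same amidotransferase, fell by 0.34 in DED against MA. MTO1, a tRNA modification enzyme, fell by 0.60 in MA and rose by 0.52 in DED against MA. Its partner GTPBP3 fell by 0.45 in MA and differed from MSC by -0.48 in DED. TRNT1, which adds the CCA end, rose by 0.62 in DED against MA and was 0.42 above MSC.

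Of 8 mitochondrial translation factors 1 rose and 2 fell in MA, or 1 call in all without MSC array 2, MSC array 4 or MA array 5. GUF1 fell by 0.68 in MA and rose by 0.67 in DED against MA, the 1 call of that list there, or 3 calls without MA array 1. The initiation factor MTIF3 rose by 0.39 and the elongation factor TSFM fell by 0.33 in MA. Against MSC, DED had 0 higher and 2 lower, MTIF2 (-0.67) and TSFM (-0.38). TUFM was not analysed here. Of 11 mitochondrial transcription and biogenesis genes 2 rose and 3 fell in MA (median -0.07), 1 rose and 2 fell in DED against MA (median 0.04), and 2 were higher and 4 lower in DED against MSC (median 0.06). The coactivators PPARGC1A and PPARGC1B rose by 2.02 and 0.47 in MA. The methyltransferase TFB1M fell by 1.02, the coactivator PPRC1 by 0.85 and TFAM, which packages mitochondrial DNA, by 0.62. The transcription factor TFB2M rose by 0.71 in DED against MA, and PPARGC1B and GABPA fell by 0.41 and 0.40, while PPARGC1A did not pass (-0.16). PPARGC1A (1.86) and TFB2M (0.56) were higher in DED than in MSC, and TFB1M (-0.64) and TFAM (-0.58) were lower.

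Of 7 cytosolic elongation and termination genes 3 rose and 2 fell in MA (median 0.16), and 1 rose and 2 fell in DED against MA (median -0.13). The 5 calls in MA became 3 without any 1 MSC array or MA array 1 and 2 without MA array 5. EEF2K, the kinase of elongation factor EEF2, and EEF1D rose by 0.47 and 0.38 in MA, and EIF5A and the release factor ETF1 fell by 0.59 and 0.40. EEF1D and EEF1A2 fell by 0.53 and 0.35 in DED against MA, and ETF1 rose by 0.52. EIF5A, at -0.68, was the 1 call in DED against MSC, where 2 genes passed without MA array 4 or DED array 3.

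Of 12 genes of mTORC1 and MYC 3 rose and 1 fell in MA (median 0.15), 1 rose and 2 fell in DED against MA, and 2 were higher and 0 lower in DED against MSC (median 0.05). The 4 calls in MA became 2 without MSC array 1 or 5, MA array 2, 3 or 5 or DED array 4, and the 3 in DED against MA became 5 without DED array 1. MYC, a known activator of synthetase genes, ran from 10.35 to 10.85 in MSC, from 10.48 to 11.03 in MA and from 10.26 to 11.45 in DED and passed in none of the 3 comparisons (0.15, -0.12 and 0.03). Its partner MAX fell by 0.25 in MA. CASTOR1 and SESN1, amino acid sensors upstream of mTORC1, rose by 1.40 and 1.14 in MA and were 1.05 and 0.48 higher in DED than in MSC. SESN1 fell by 0.67 and MTOR by 0.46 in DED against MA, and RPTOR, the mTORC1 scaffold, rose there by 0.52.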

How the data were processed

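RNA of ASC52 cells was extracted with a QIAGEN RNeasy kit and labelled with biotin, per the labels. The authors deposited 1 table of log2 intensities for 15 arrays. The submitters' processing notes name RMA and Transcriptome Analysis Console. Their versions and the build of the probe sets were not given in the sources used here. RMA normalizes between arrays, so a shift common to all genes is not visible. Groups and array numbers came from the sample titles.

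Of 24351 probe sets, 17709 had 1 gene symbol in the platform annotation. For genes with several, the one with the highest mean was used, leaving 17687 genes. limma 3.58.1 in R 4.3.3 fitted 1 mean per group over all 15 arrays, with Benjamini-Hochberg adjustment over all genes and a threshold of 0.05. The cytosolic minus mitochondrial values of 14 pairs were added to that fit. Intervals are 95% limma intervals, and their number of arrays limits the precision. The steps were tested on simulated data.

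Members and gene lists were chosen with earlier results of these data known, and groups of members by complex or class were written after the values were seen. Every member was reported. From each list and comparison the text names the genes past the test that rose most and those that fell most, at most 2 each way, with ATF4, ASNS, MYC and AIMP1 whatever their test, and ADIPOQ and PLIN1 of the markers. CD68, EPCAM, CDH1, the keratins and, in DED against MA and MSC, some values of genes named elsewhere were added after their values were seen. Alternatives covered normalization, a filter on dim genes, the variance prior, array weights, the arrays in the fit, a replicate block and the choice of probe set. Numbers did not pair arrays: deviations of same-numbered arrays correlated from -0.108 to 0.087. Promoter windows are those of RefSeq, and figures were drawn with matplotlib 3.10.9. Protein sequences were not used here.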

Additional observations from a re-analysis of the deposited data

Results flagged for a closer look

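In 93 groups of 5 arrays (31 members in 3 groups), 5 held an array whose gap to the nearest other array passed Dixon's 95% critical value of 0.71 of the range. Chance alone flags about 1 in 20 groups. NARS1 on DED array 3 read 10.47 beside 10.08 to 10.14 on the other DED arrays. MARS2, a dim member, read 6.01 on DED array 3 beside 5.25 to 5.34, and 5.58 on MA array 1 beside 5.24 to 5.31. EARS2, also dim, read 5.19 on MSC array 1 beside 4.73 to 4.83. FARSB read 12.77 on MSC array 3 beside 12.93 to 12.99.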

How the results depend on the processing

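The cytosolic count of falls in MA against MSC was 13 or 14 of 16 and that of rises in DED against MA was 11 under all 24 alternatives run. No result changed its direction once called. The samples share only a number, and the fit with the replicate block gave 1 cytosolic member higher and 1 pair with the cytosolic change lower in DED against MSC, and 2 calls among mTORC1 and MYC genes in MA against MSC, where the fit without it gave 3, 2 and 4. For the mitochondrial enzymes, the 1 rise in MA against MSC was 1 to 2 and the 2 falls 1 to 2 without 1 array, and 1 fall was left under quantile normalization, array weights, or without DED arrays 1 and 3 together. Their 2 rises in DED against MA were 1 to 3 without 1 array, 1 with array weights and 0 without DED arrays 1 and 3. Their 2 falls in DED against MSC were 0 to 2 without 1 array and 1 without DED arrays 1 and 3. In DED against MSC the 3 cytosolic rises were 1 with the 2 groups fitted alone and 1 to 3 without 1 array, the 3 falls were 5 with an intensity trend and robust fit and 2 to 4 without 1 array, the 2 lower pairs were 1 under quantile normalization or without DED arrays 1 and 3 and 1 to 2 without 1 array, and the 8 members called were 5 without DED arrays 1 and 3 and 4 to 8 without 1 array. Among the lists, leaving out 1 array gave 2 to 5 calls for cytosolic elongation, 1 to 3 for mitochondrial translation factors and 2 to 5 for mTORC1 and MYC in MA against MSC. In DED against MA it gave 3 to 5 for partners and editing (3 without DED arrays 1 and 3), 1 to 3 for mitochondrial translation factors and 2 to 5 for mTORC1 and MYC (5 with array weights). In DED against MSC, mitochondrial aminoacyl-tRNA completion gave 2 to 3 without 1 array and 5 with array weights. Cytosolic elongation there gave 1 to 2 without 1 array and 2 under quantile normalization, without dim genes, with an intensity trend and robust fit, with array weights, or without DED arrays 1 and 3. Over the 135 single results for members and pairs, 3124 of 3228 repeats kept direction and side of the threshold, 86 lost a call and 18 gained one. The causes were not tested. Signal near background limits 10 of the 15 mitochondrial members, and the dim genes of the lists.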
